A study of Mus musculus with 2 samples.

Results

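Actin regulators and myosins were followed in RNA-seq libraries of macrophages from leukaemic mice. The genes were those whose symbol in the deposited tables begins as a numbered myosin (Myo), myosin heavy or light chain (Myh, Myl), Arp2/3 subunit or actin-related protein (Arpc, Actr), tropomyosin (Tpm), coronin (Coro) or capping protein (Capg, Capz), or belongs to the WASP family (Was, Wasf, Wash) or the thymosins (Tmsb), together with Lsp1 and Lcp1. In all, 82 listed genes matched, and 64 of them had 10 or more reads in at least 1 library, of 12970 genes with as many reads. The remaining 18 had fewer than 10 reads in both libraries. The disease was acute myeloid leukaemia of the MLL-AF9 model, which a fusion oncogene drives. Each C57BL/6J recipient had received 500000 GFP+ leukaemia cells without irradiation, and survival was 25 to 30 days. Macrophages were sorted at day 15, and 1 library was made from bone marrow and 1 from spleen. Mice of both groups were 6 to 8 weeks old by their labels, both groups carried the leukaemia, and neither the number of mice behind a library nor the gates of the sort were stated. With 1 library per tissue there was no replicate check, so differences are between 2 libraries, and every interval covers counting error only.

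Actin is held in cells as monomers and as filaments, and leukocytes rebuild their filaments continuously to crawl, to engulf particles and to form contacts with other cells. Thymosins bind the monomers. WASP family proteins switch on the Arp2/3 complex, which starts new branches on existing filaments, capping proteins stop filament growth at the fast-growing end, and coronins help to take branches apart. Tropomyosins coat filaments, Lcp1 bundles them, and myosins pull on them, with class II myosins working in bipolar filaments and class I myosins tying actin to membranes. The symbol rule also takes in genes that do not act on the actin network: Actr1a, Actr1b and Actr10 belong to dynactin, the partner of the dynein motor, and Actr5, Actr6 and Actr8 to nuclear chromatin remodelling complexes.

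After TMM scaling, a correction for differences in composition, the libraries had effective depths of 9405947 reads (bone marrow) and 8457857 reads (spleen) placed uniquely on genes. Levels are given as CPM, counts relative to these depths, and a count of 0 allows up to 0.319 CPM in the marrow library and 0.355 CPM in spleen. Marker lists for other cells moved strongly between the libraries. The summed level of 12 neutrophil and granulocyte precursor genes was 48087 CPM in the marrow library and 2192 CPM in spleen, with 12 of 12 at least 2-fold higher in bone marrow. The summed levels in bone marrow and spleen were 394 and 4511 CPM for 8 B cell genes, 137 and 1348 CPM for 9 T cell genes, and 113 and 935 CPM for 8 conventional dendritic cell genes. Of these lists, 8 of 8, 9 of 9 and 7 of 8 genes stood 2-fold or more higher in spleen, and no defining marker of the 4 lists was at 0 in either library. For 5 NK genes the summed levels were 108 and 222 CPM, with 3 of 5 at least 2-fold higher in spleen. The 12 macrophage genes, the labelled cell type, were all detected and summed to 573 CPM in the marrow library and 1212 CPM in spleen. Of these 12, 6 stood 2-fold or more higher in spleen and 0 in bone marrow. In such bulk samples, fewer cells of a type and less RNA per cell cannot be told apart, and the part that these other cells had in the differences below was not tested.

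The promoter sequences shown here are those of the members that hold a short sequence recognised by transcription factors tied to actin genes or to blood cells. RefSeq promoters (build GRCm38.p6, 250 bases before to 50 after a start) were found for 55 of the 64 genes, and the deposited tables name no build of their own. The first sequence searched was the CArG box, the site of serum response factor, which drives many cytoskeletal genes. It was present on either strand in 4 of the 55 genes (7.27%) and in 1.81% of all 27025 genes with a promoter. The 55 genes had been kept for their reads in these libraries, while the 27025 were not filtered by reads. A comparison with genes filtered in the same way was not made, so whether the difference in share is tied to expression was not tested. The windows lie at chr9:70207278-70207349 (plus strand) for Myo1e, chr10:128493010-128493099 (minus strand) for Myl6, chr2:156775263-156775352 (plus strand) for Myl9 and chr6:113377863-113377912 (plus strand) for Arpc4. They are written 5′ to 3′ on the gene's strand with the CArG box in capitals.
Myo1e: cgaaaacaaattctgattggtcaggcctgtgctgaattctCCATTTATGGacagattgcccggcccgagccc
Myl6: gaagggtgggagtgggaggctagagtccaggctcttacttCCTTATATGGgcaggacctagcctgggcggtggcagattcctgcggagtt
Myl9: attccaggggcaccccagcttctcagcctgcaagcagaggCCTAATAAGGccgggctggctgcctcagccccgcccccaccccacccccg
Arpc4: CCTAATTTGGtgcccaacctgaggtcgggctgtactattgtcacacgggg
The box begins 32 bases before the start in Myo1e, 50 in Myl6, 161 in Myl9 and 250 in Arpc4, where it lies at the edge of the window. Of these genes, Myo1e differed most between the libraries, Myl6 and Arpc4 were abundant and nearly even, and Myl9 was barely detected.

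The second sequence was GGAAGTG, a core that many ETS family transcription factors bind. It was present on either strand in 16 of the 55 genes (29.1%) and in 12.5% of all genes, and 6 of the 16 were among the 8 Arp2/3 genes with a promoter. In 5 of these 8, in 7 of the 55 genes (12.7%) and in 3.71% of all genes, it began within 50 bases before a start. Both the Arp2/3 family and this narrower window were chosen after the matches were seen. In this paragraph too, all genes are the 27025 with a promoter, which were not filtered by reads as the 55 were. Whether the higher shares are tied to expression was not tested. Of the 9 genes with a promoter that were called at 2-fold, 2 held GGAAGTG and 0 held the longer GAGGAAGT. The windows lie at chr1:125435727-125435777 (minus strand) for Actr3, chr5:145083819-145083868 (plus strand) for Arpc1a, chr1:74236467-74236516 (plus strand) for Arpc2, chr5:122391828-122391877 (plus strand) for Arpc3 and chr6:113378063-113378112 (plus strand) for Arpc4. Capitals mark the core, which reads CACTTCC where it lies on the other strand.
Actr3: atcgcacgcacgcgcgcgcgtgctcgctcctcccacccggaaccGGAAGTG
Arpc1a: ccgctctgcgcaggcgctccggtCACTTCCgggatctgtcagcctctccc
Arpc2: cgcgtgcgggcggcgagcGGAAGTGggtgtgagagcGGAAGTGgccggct
Arpc3: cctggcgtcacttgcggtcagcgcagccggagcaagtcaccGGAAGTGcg
Arpc4: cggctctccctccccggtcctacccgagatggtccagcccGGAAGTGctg
Arpc1b, the sixth, carries the core just after its start, where it overlaps a longer ETS core, GAGGAAGT, which was present in 1 of the 55 genes and in 3.69% of all genes. Each Arp2/3 gene shown here lay within 1.5-fold between the libraries. A match is a description of the letters in the window and says nothing of binding.

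Most of these genes were at similar levels in the 2 libraries. Of the 64, 51 lay within 2-fold on the log2(CPM + 1) scale and 43 lay within 1.5-fold (67.2%, against 50.2% of all 12970 genes). Called towards bone marrow, at 2-fold or more, were 4 genes (6.25%, against 14.1% of all genes), and called towards spleen were 9 (14.1%, against 14.6% of all genes). The share called towards spleen was thus near that of all genes. The median log2 ratio of bone marrow over spleen was -0.02, against 0.03 for all genes. Many of the 64 are abundant: 37 reached 100 CPM in a library. Of those 37, 28 lay within 1.5-fold (75.7%, against 47.1% of all genes as abundant), 0 were called towards bone marrow (against 14.4%) and 6 towards spleen (against 15.7%). Together the 82 listed genes took 1.73% of the bone marrow reads (exact binomial interval 1.72 to 1.74) and 2.10% of the spleen reads (2.09 to 2.11).

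**Figure D1:**
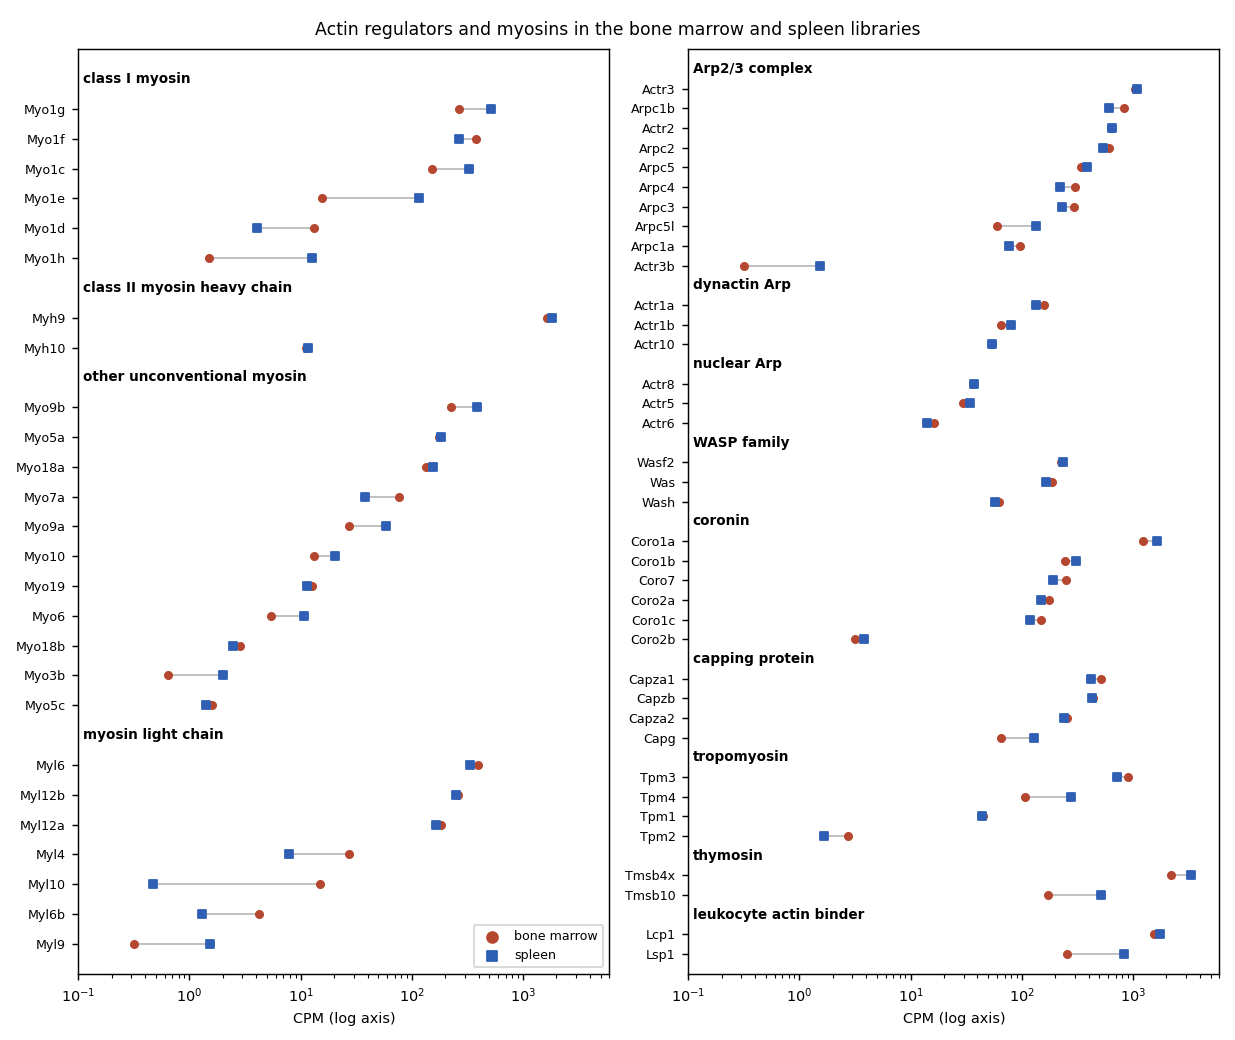
Levels of 63 of the 64 genes in CPM (log axis), grouped by family, with a circle for the bone marrow library and a square for the spleen library. Most pairs lie close together; wide gaps are seen for Myo1e (15.5 and 115.5 CPM), Myl10 (15.0 and 0.47 CPM) and Lsp1 (257 and 829 CPM).

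The monomer-binding thymosins included the most abundant gene of the group. Tmsb4x was at 2224 CPM in the marrow library and 3298 CPM in spleen, 1.48-fold higher in spleen (95% interval 1.46 to 1.51) and inside the 2-fold limit. Per length it was the seventh most abundant of all genes in bone marrow and the third in spleen, at 3244 and 5037 RPKM (the deposited count scaled to gene length and library size). Tmsb10 (Entrez gene 19240), the other widely expressed member, was at 172 CPM in the marrow library and 516 CPM in spleen, 2.99-fold higher in spleen (2.83 to 3.17). Its share of the summed RPKM of the pair went from 7.54% to 14.1%. Both are short genes with related copies elsewhere in the genome, so counts of uniquely placed reads are uncertain for them. The 3 Tmsb15 genes had at most 8 reads.

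The WASP family genes that the symbol rule takes in were near even. Was, the haematopoietic WASP, was at 186 CPM in the marrow library and 166 CPM in spleen. Wasf2, the WAVE protein of leukocytes, was at 227 and 236 CPM, and Wash, an endosomal activator now named Washc1, at 62.9 and 58.1 CPM. Wasf1, the WAVE protein known from neurons, had 1 read in each library. The intervals of the fold included equal levels for Wasf2 (0.906 to 1.02) and Wash (0.960 to 1.22), and for Was the fold was 1.12 towards bone marrow (1.05 to 1.205). These intervals take the TMM scaling as given. With library totals alone the log2 ratio of Wasf2 went from -0.05 to -0.12, so whether an interval includes equality can depend on the scaling.

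Most subunits of the Arp2/3 complex were near even. Of its 10 genes, 8 lay within 1.5-fold (against 50.2% of all genes), 0 were called towards bone marrow (against 14.1%) and 1 towards spleen (against 14.6%). The summed level was 4225 CPM in the marrow library and 3920 CPM in spleen. Actr3, which encodes Arp3, was at 1043 and 1083 CPM and Actr2, which encodes Arp2, at 639 and 642 CPM. Arpc1b, the haematopoietic form of subunit 1, was at 837 CPM in the marrow library and 605 CPM in spleen, 1.38-fold higher in bone marrow (1.34 to 1.43). Its relative Arpc1a was at 96.9 and 77.0 CPM. Arpc2, Arpc3 and Arpc4 were at 610, 294 and 303 CPM in marrow and at 542, 230 and 220 CPM in spleen. Actr3b, a second Arp3 gene, had 3 and 13 reads and was 4.82-fold higher in spleen (1.32 to 26.4), which was not called after the pseudocount (log2 ratio -0.94).

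Subunit 5 of the complex is encoded by Arpc5 or Arpc5l, which are alternatives in the same position. Arpc5 was at 341 CPM in the marrow library and 385 CPM in spleen. Arpc5l (Entrez gene 74192) was at 59.4 CPM in the marrow library and 133 CPM in spleen, 2.25-fold higher in spleen (2.03 to 2.49). Per length, Arpc5l made up 20.6% of the pair in bone marrow and 34.1% in spleen, so the Arpc5l to Arpc5 ratio was 1.99 times as high in spleen (Wald interval of the log odds ratio 1.78 to 2.23, counting error only). The corresponding ratio of Arpc1a to Arpc1b was 1.10 times as high in spleen, and its interval of 0.988 to 1.22 included equality. This contrast of ratios does not depend on how the libraries were scaled.

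**Figure D2:**
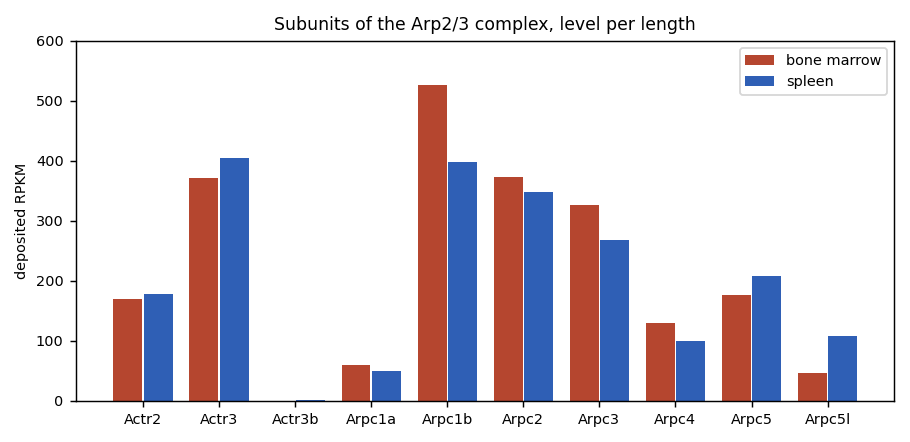
Deposited RPKM, a level per gene length, of the 10 Arp2/3 genes, with 1 bar per library and the axis starting at 0. Arpc1b is the tallest in bone marrow (526 RPKM), Actr3 in spleen (404 RPKM), and Arpc5l differs by more than 2-fold (45.7 and 107 RPKM); Actr3b is under 1 RPKM in both.

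Filament ends were also near even. Capza1, Capza2 and Capzb, the subunits of the heterodimeric capping protein, were at 517, 257 and 442 CPM in marrow and at 416, 241 and 428 CPM in spleen. Capg, a gelsolin-related capping protein of macrophages and dendritic cells, differed more, at 65.0 CPM in the marrow library and 130 CPM in spleen. Its fold, with an interval of 1.81 to 2.21, corresponds to a log2 ratio of -0.99 after the pseudocount, the nearest to the limit of those not called. Myo7a, at a log2 ratio of 0.99, lay just inside the limit on the other side, and Myo9a, at -1.06, was the nearest of the called genes.

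All 6 measured coronins lay within 1.5-fold. Coro1a, the coronin of leukocytes and the second most abundant of the 64 genes per length, was at 1235 CPM in the marrow library and 1662 CPM in spleen, 1.35-fold higher in spleen (1.31 to 1.38). Coro1b was at 247 and 309 CPM. Coro7, which acts at the Golgi, was at 248 and 192 CPM, and Coro1c at 150 and 118 CPM.

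Of the 4 filament-coating tropomyosins, 3 lay within 1.5-fold and Tpm4 did not, and the summed level was 1055 CPM in the marrow library and 1036 CPM in spleen. Tpm3, the most abundant, was at 900 CPM in the marrow library and 713 CPM in spleen. Tpm4 (Entrez gene 326618), a non-muscle form, went the other way, at 106 CPM in the marrow library and 277 CPM in spleen, 2.61-fold higher in spleen (2.42 to 2.81). Tpm4 made up 11.7% of the RPKM of this pair in bone marrow against 30.4% in spleen, and the ratio of Tpm4 to Tpm3 was 3.29 times as high in spleen (3.03 to 3.57). Tpm1 was at 45.3 and 44.2 CPM, and Tpm2, the form of smooth and slow muscle, had 26 and 14 reads. Tpm3 has processed copies in the genome, which makes its counts uncertain.

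Of the leukocyte actin binders, Lcp1 was even and Lsp1 was not. Lcp1, the leukocyte plastin that bundles filaments, was at 1542 CPM in the marrow library and 1766 CPM in spleen. Lsp1 (Entrez gene 16985), an F-actin binding protein of lymphocytes, neutrophils and macrophages, was at 257 CPM in the marrow library and 829 CPM in spleen, 3.22-fold higher in spleen (3.08 to 3.38). Lsp1 had the largest difference towards spleen among the 37 genes that reached 100 CPM, apart from Myo1e. The B cell, T cell, dendritic cell, NK and macrophage lists had higher summed levels in the same library. Their part in the Lsp1 difference was not tested.

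**Figure D3:**
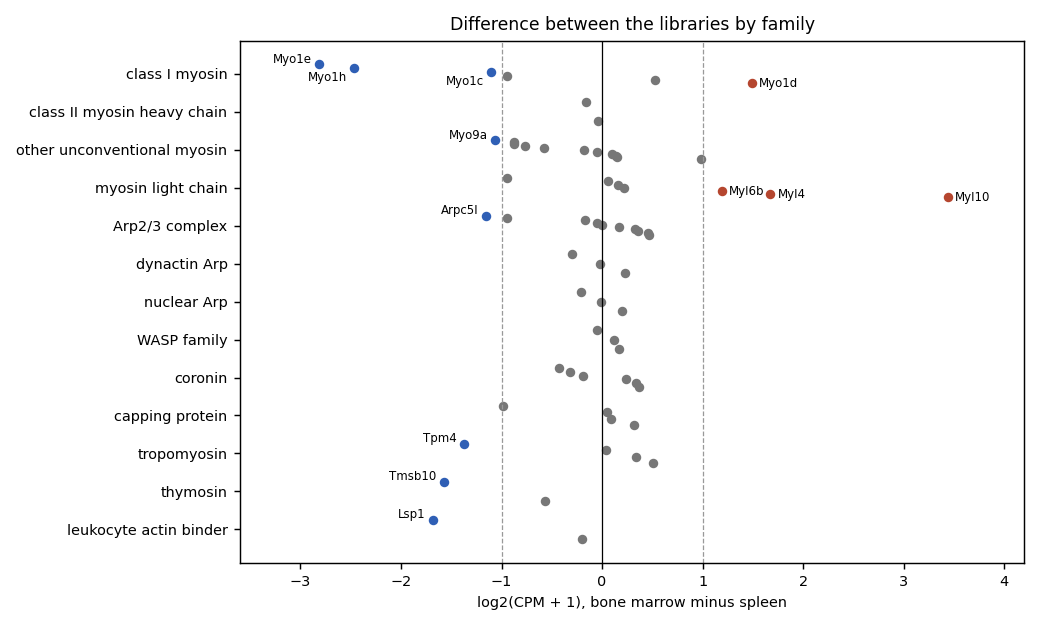
Log2(CPM + 1) ratios, bone marrow minus spleen, of 63 of the 64 genes by family, with dashed lines at 2-fold; named points are the 4 genes called towards bone marrow and 8 of the 9 called towards spleen. Dynactin, nuclear Arp, WASP and coronin genes stay within 1.5-fold, while class I myosins span from -2.82 to 1.49.

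Among the motors, the conventional myosin of non-muscle cells was even. Myh9, the heavy chain of non-muscle myosin IIA, was at 1632 CPM in the marrow library and 1821 CPM in spleen, 1.12-fold higher in spleen (1.09 to 1.14). Myh10, the IIB heavy chain, had 106 and 98 reads. The other 8 heavy chain genes listed, mostly those of muscle, had at most 5 reads in a library. Of the 6 skeletal muscle markers 5 were listed, summing to 3.72 CPM in the marrow library and 8.75 CPM in spleen.

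The light chains that serve Myh9 were near even too, and 4 light chains at low levels were not. Myl6, the essential light chain of non-muscle myosin, was at 393 CPM in the marrow library and 337 CPM in spleen, and the regulatory chains Myl12a and Myl12b at 184 and 263 CPM in the marrow library and 165 and 252 CPM in spleen. Myl12a and Myl12b are near-identical copies, so their counts are uncertain. Myl10 (Entrez gene 59310), a regulatory light chain first named for precursor lymphocytes, had 141 reads in the marrow library and 4 in spleen, 31.7-fold higher in bone marrow (12.1 to 118), the largest difference among the 64 genes. That rank rests on few spleen reads: with a pseudocount of 5 the log2 ratio of Myl10 was 1.87, smaller in size than that of Myo1e (-2.55). Myl4 (Entrez gene 17896), the embryonic and atrial essential chain, was at 27.4 and 7.92 CPM, 3.46-fold higher in bone marrow (2.64 to 4.60). Myl6b, with 40 and 11 reads, was 3.27-fold higher in bone marrow (1.65 to 7.07); it falls outside the naming rule on reads and is named because it was 1 of only 4 called in this direction. With a pseudocount of 5 its log2 ratio was 0.55 and the call was lost, and it did not reach a floor of 10 CPM. Myl9, a regulatory light chain of smooth muscle, went the other way with 3 and 13 reads, 4.82-fold higher in spleen (1.32 to 26.4), and was not called at this low level (log2 ratio -0.94).

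Genes of B cell precursors moved in the same direction as Myl10. In a list of 6 such genes chosen after the data were seen (Igll1, Vpreb1, Vpreb3, Rag1, Rag2 and Dntt), 5 were called towards bone marrow, the summed level was 244 CPM in the marrow library and 45.05 CPM in spleen, and none was at 0. The summed level of the 8 mature B cell genes went the other way, at 394 and 4511 CPM. Other lists were called towards bone marrow too, among them granulocyte precursor genes (12 of 12) and megakaryocyte genes (7 of 9 measured). Eosinophil, basophil and mast cell genes (6 of 6) were as well. The part of any of these cells in the Myl10 difference was not tested.

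Class I myosins were widely spread between the libraries. Of the 7 measured, 4 were called towards spleen (against 14.6% of all genes), 1 towards bone marrow (against 14.1%) and 1 lay within 1.5-fold (against 50.2%). Myo1e (Entrez gene 71602), a long-tailed form that works in endocytosis and phagocytosis, had 146 reads in the marrow library and 977 in spleen, 15.5 and 115.5 CPM, a 7.44-fold difference (6.25 to 8.92). Its closest relative Myo1f, the long-tailed form of blood cells, was at 382 CPM in the marrow library and 265 CPM in spleen, 1.44-fold higher in bone marrow (1.37 to 1.52). Per length, Myo1e therefore made up 3.05% of this pair in bone marrow against 25.3% in spleen, and the ratio of Myo1e to Myo1f was 10.7 times as high in spleen (8.95 to 12.9).

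Among the short-tailed class I myosins described here, Myo1d went against the others. Myo1g, a haematopoietic form at the plasma membrane of lymphocytes, was at 267 CPM in the marrow library and 516 CPM in spleen, 1.93-fold higher in spleen (1.84 to 2.03). This lies inside the 2-fold limit but passed it with library totals alone (log2 ratio -1.02) and with the deposited RPKM (-1.01). Myo1c (Entrez gene 17913), which moves membrane cargo, was at 151 and 327 CPM, 2.16-fold higher in spleen (2.02 to 2.30). Myo1h, with 14 and 108 reads, was 8.58-fold higher in spleen (4.90 to 16.2). Myo1d had 123 reads in the marrow library and 34 in spleen, and was 3.25-fold higher in bone marrow (2.21 to 4.91). On the deposited RPKM scale its log2 ratio was 0.94, short of the limit. The summed levels of the B cell, T cell, dendritic cell, NK and macrophage lists were higher in spleen, as Myo1e, Myo1g and Myo1c were. The part of these cells was not tested.

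**Figure D4:**
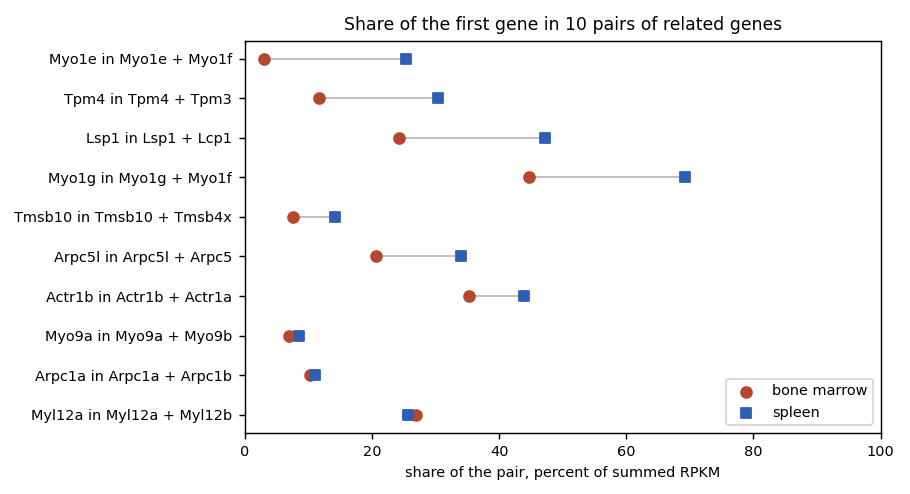
Share of the first gene in the summed RPKM of 10 gene pairs, in percent, with a circle for bone marrow and a square for spleen. The pairs were chosen after the data were seen. Most join related genes, but Lsp1 is paired with Lcp1 only as another actin binder of leukocytes. The largest shifts are those of Myo1g (44.7% to 69.3%), Lsp1 (24.2% to 47.3%) and Myo1e (3.05% to 25.3%), while Myl12a and Arpc1a hardly move.

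Other unconventional myosins were mostly within 2-fold. Myo9b was at 225 CPM in the marrow library and 384 CPM in spleen, 1.70-fold higher in spleen (1.61 to 1.80). Its relative Myo9a (Entrez gene 270163) was at 27.4 and 58.3 CPM, 2.13-fold higher in spleen (1.82 to 2.48), a call that was lost with a pseudocount of 5 (log2 ratio -0.96) and with the deposited RPKM (-0.89). Myo5a, an organelle transporter, was at 177 and 184 CPM and Myo18a at 135 and 154 CPM. Myo7a, a motor known from sensory hair cells, was at 76.4 CPM in the marrow library and 38.1 CPM in spleen. Of the 11 measured genes of this set, 1 was called towards spleen (against 14.6% of all genes) and 0 towards bone marrow (against 14.1%).

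The dynactin and nuclear actin-related proteins were near even. Actr1a, Actr1b and Actr10 were at 158, 65.0 and 53.7 CPM in marrow and at 135, 80.04 and 54.5 CPM in spleen. Actr5, Actr6 and Actr8 were at 29.4, 16.2 and 36.8 CPM in marrow and at 34.3, 14.0 and 37.1 CPM in spleen. All 6 lay within 1.5-fold.

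Other genes of the actin pathway, from a list of 90 that holds none of the genes above, were mostly within 2-fold. Of the 83 with 10 or more reads, 9 were called towards bone marrow, 9 towards spleen and 65 lay within 2-fold, and the median log2 ratio was -0.02. Within 1.5-fold lay 45 of the 83, against 50.2% of all genes. The shares of the list that were called were below the 14.1% and 14.6% of all genes. The actins themselves were even, with Actb at 3464 CPM in the marrow library and 4560 CPM in spleen and Actg1 at 2430 and 2365 CPM.

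The 9 called towards bone marrow were Dstn, Diaph3, Cttn, Scin, Actn4, Vcl, Enah, Mylk and Arhgdib, of which examples were chosen after their values were seen. Dstn, the destrin that disassembles filaments, was at 553 CPM in the marrow library and 70.2 CPM in spleen, a 7.88-fold difference, while its relative Cfl1, cofilin, was at 1384 and 1116 CPM. Vcl, the adhesion protein vinculin, was at 274 and 54.6 CPM, and Diaph3, a formin, at 53.7 and 11.5 CPM. Arhgdib was at 1494 and 705 CPM. Granulocyte precursor genes (12 of 12) and megakaryocyte genes (7 of 9 measured) were also called towards bone marrow, and the summed level of the latter was 375 CPM against 81.2 CPM in spleen. The same held for eosinophil, basophil and mast cell genes (6 of 6, summed level 2448 CPM against 47.3 CPM). A joint list of smooth muscle and stromal genes summed to 48.6 CPM against 6.27 CPM, with 4 of 5 measured called. Those 4 were the stromal genes Pdgfrb, Col1a1, Col1a2 and Cxcl12, the last at 0 in spleen. The smooth muscle genes were not called. Tagln counts were 29 (marrow) and 24 (spleen), and Acta2 (9 and 7) and Cnn1 (2 and 0) fell below 10 reads. The part of these cells was not tested.

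The 9 called towards spleen were Swap70, Evl, Ssh1, Ssh2, Fscn1, Rhoh, Arhgef1, Abi3 and Mylip. Swap70, an actin-binding exchange protein of B cells and dendritic cells, was at 94.3 CPM in the marrow library and 406 CPM in spleen. Evl, an Ena/VASP protein that promotes filament growth, was at 49.1 and 198 CPM, and Ssh1, a phosphatase that activates cofilin, at 12.5 and 47.8 CPM. Fscn1, the bundling protein fascin, had 23 and 876 reads; it also belongs to the dendritic cell list. The small GTPase genes Rac1, Rac2 and Cdc42 lay within 1.5-fold. Srf, the factor that binds the CArG box, was at 116 and 127 CPM.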

How the data were processed

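Total RNA of sorted macrophages was sequenced as 1 library from bone marrow and 1 from spleen. Each gene had, per the file headers, a deposited count of uniquely placed reads, a length, the percent of the length covered and an RPKM value (reads scaled to gene length and library size); a gene missing from a table was given a count of 0. For aligner, counting program, genome build and annotation, the entry is: not given in the sources used here. Tables were joined on the Entrez identifier. Counts were scaled with TMM (edgeR 4.0.16, R 4.3.3), giving factors of 0.977 and 1.02. Differences were taken on log2(CPM + 1), bone marrow minus spleen, and called at 2-fold among genes with 10 or more reads in a library; this scale understates the change of low genes. No test was possible with 1 library per tissue. Folds of CPM have exact conditional binomial (Clopper-Pearson) 95% intervals (SciPy 1.17.1), and ratios of 2 genes have Wald intervals of the log odds ratio. Reads carried no molecular identifiers, so PCR copies are not independent. The procedure was run on counts simulated with counting error alone, which says nothing of variation between mice or libraries. The members and lists were chosen with earlier results of these data known. Named were genes called with at least 100 reads, genes of at least 200 CPM and the most abundant of each family. Alternatives were library totals alone or size factors of DESeq2 1.42.0, pseudocounts of 5 and 0.1, a 4-fold rule, RPKM, a floor of 10 CPM or none and, added after seeing the data, a floor of 100 CPM. Of the promoters of members, the transcribed part of 68 of 72 was found in a GENCODE M21 transcript. The values of 1 gene that is counted here are not reported.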

Additional observations from a re-analysis of the deposited data

How the results depend on the processing

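No paired analysis was possible because each tissue had 1 library. The counts of actin regulators and myosins called towards bone marrow (4) and spleen (9) stayed within 1.5 times with library totals alone, DESeq2 size factors, either pseudocount (0.1 or 5), the deposited RPKM, a floor of 10 CPM and none. With a 4-fold rule, 1 of them was called towards bone marrow and 2 towards spleen, the related actin genes gave 4 and 2, and all genes gave 573 and 530; a stricter rule calls fewer genes by construction. With a floor of 100 CPM, 0 of the actin regulators and myosins were called towards bone marrow, and all genes gave 453 and 496, since fewer genes were counted. With a pseudocount of 5, 1210 of all genes were called towards spleen instead of 1898. Of 38 genes (those called, abundant or leading a family), 0 changed direction after being called. Their log2 ratios left their own counting intervals for 11 with library totals alone, 12 with the deposited RPKM, 3 with a pseudocount of 5 and 0 with DESeq2 size factors. Among the 11 were Tmsb4x (-0.57 to -0.63), Myh9, Coro1a, Lcp1 and Capzb, which changed sign (0.05 to -0.02). The choice of scaling can thus exceed the counting error of abundant genes. Of these 38, 3 crossed the 2-fold limit with a pseudocount of 5 (Myl6b and Myo9a among them), 4 with the deposited RPKM (Myo1d, Myo1g and Myo9a among them) and 1 with library totals alone (Myo1g). Depth limits the genes with few reads, such as Myl10, Myl6b and Myo1h, whose intervals are wide.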

Other observations

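The deposited coverage column shows that some abundant genes of the group were read over only part of their length. Of 38 actin regulators and myosins with at least 500 reads in both libraries, 32 were covered over more than 90% of their length in both, and 3 over less than 80% in both. Arpc4 was covered over 68.5% with 2851 reads in bone marrow and over 77.2% with 1861 reads in spleen. Tmsb10 was covered over 72.7% and 73.2%, and Lsp1 over 77.2% and 79.7% despite 7011 reads in spleen. The reason was not tested.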
